A study of Drosophila melanogaster with 2 samples.

Results

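Divergent promoters occupied by Broad were described from transcription factor ChIP-seq of Drosophila melanogaster. A peak was counted as divergent when its summit lay within 500 bp of annotated start sites of at least 2 protein-coding genes on opposite strands. By this rule 713 of the 6635 peaks in the authors' optimal set were members (10.7%), beside 1937 promoter peaks of a single gene (29.2%) and 52 peaks near several genes of the same strand. The material was whole wandering larvae of the last instar, with males and females pooled, from the transgenic strain br-rj-GFP. In this line the product of the transcript br-RJ is fused at its C-terminal end to GFP, and the precipitation used an antibody against GFP. Every sample carries the same fusion and no untagged, untreated or staged group is part of the series, so its 1 group with 2 biological replicates allows no comparison of conditions. Whole larvae mix all tissues, so a peak cannot be assigned to a cell type, and binding in few cells cannot be told apart from weak binding in many. The age in hours is given as unknown.

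Broad is a family of BTB zinc finger proteins made from br, an early gene of the response to the moulting hormone ecdysone, and its isoforms differ in their zinc fingers. In wandering larvae ecdysone starts metamorphosis, and Broad is known for directing the change of larval into pupal tissues. A divergent, or head-to-head, promoter is a short stretch of DNA from which a gene on the minus strand is read leftward and a gene on the plus strand rightward. In flies many such pairs encode proteins that nearly all cells need, and their promoters often carry sequences such as TATCGATA, the element bound by Dref, and GGTCACAC, called Motif 1 and bound by M1BP.

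The DNA between the start sites is shown first for 5 occupied pairs, because it is the part that both genes share and it holds the summit. They were taken from head-to-head members with 30 to 300 bp between the starts, the summit in that interval and no annotated exon there. Shown are the 3 strongest of the intervals that were read, and the 2 strongest that hold a TATCGATA. The plus strand of dm6 is printed 5′ to 3′ from the RefSeq genome of the same assembly, from the base after 1 start to the base before the other. Capitals mark matches, on either strand, to TATCGATA, to GGTCACAC, to the E-box forms CAGCTG and CACGTG, to the initiator TCAGTT, to the A-rich words AAACAAA and AAACTAA, or to CANCNCTA, the core of Motif 7.
Tcs5 and CHMP2B, chr3L:5139396-5139618: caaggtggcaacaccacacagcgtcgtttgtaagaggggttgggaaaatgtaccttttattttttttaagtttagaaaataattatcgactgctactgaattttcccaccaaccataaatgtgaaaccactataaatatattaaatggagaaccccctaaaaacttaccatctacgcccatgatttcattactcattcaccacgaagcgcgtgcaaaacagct
CG3437 and CG3552, chr3L:9457670-9457911: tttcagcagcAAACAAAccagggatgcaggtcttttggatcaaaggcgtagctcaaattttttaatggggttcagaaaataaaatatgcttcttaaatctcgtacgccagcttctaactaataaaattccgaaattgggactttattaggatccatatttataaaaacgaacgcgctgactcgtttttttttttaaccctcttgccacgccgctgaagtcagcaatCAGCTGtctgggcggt
Art3 and mRpS10, chr3R:15229409-15229664: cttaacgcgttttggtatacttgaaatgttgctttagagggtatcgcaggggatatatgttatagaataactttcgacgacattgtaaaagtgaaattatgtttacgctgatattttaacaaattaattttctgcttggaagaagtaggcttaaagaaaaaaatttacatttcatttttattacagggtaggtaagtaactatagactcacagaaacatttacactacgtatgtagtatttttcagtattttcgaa
Atat and Shc, chr3L:9426759-9427009: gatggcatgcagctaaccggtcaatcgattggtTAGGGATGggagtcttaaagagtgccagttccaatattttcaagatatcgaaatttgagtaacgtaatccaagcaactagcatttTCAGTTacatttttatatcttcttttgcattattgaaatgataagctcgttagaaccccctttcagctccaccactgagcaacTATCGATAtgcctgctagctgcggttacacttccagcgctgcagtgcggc
fws and Lamtor3, chr2L:17481030-17481230: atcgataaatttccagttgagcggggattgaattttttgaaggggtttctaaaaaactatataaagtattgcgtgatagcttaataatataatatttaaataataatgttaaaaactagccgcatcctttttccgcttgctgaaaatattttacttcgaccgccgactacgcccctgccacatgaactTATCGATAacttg

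Of the 3 strongest of these intervals, only that of CG3437 and CG3552 held capital stretches. CGATA and TATAAA were also searched, on either strand, but are not marked. CGATA began at base 84 between Tcs5 and CHMP2B and at base 42 between Art3 and mRpS10. TATAAA began at base 131 between Tcs5 and CHMP2B and at bases 158 and 160 between CG3437 and CG3552. The interval of Tcs5, which acts in tRNA modification, and CHMP2B, a subunit of the ESCRT-III membrane complex, was 223 bp long with 38.1% GC, and its summit was base 93. The interval of CG3437 and CG3552 was 242 bp long with the summit at base 133, and it held AAACAAA at base 11 and CAGCTG at base 227. The interval of Art3, an arginine methyltransferase gene, and mRpS10, a mitochondrial ribosomal protein gene, was 256 bp long with 30.1% GC and the summit at base 125. In all 3 the summit stood near the middle of the interval, but only intervals that hold the summit were chosen, which favours this. Between Atat, which encodes a tubulin acetyltransferase, and Shc, an adaptor of receptor kinases, TATCGATA began at base 202 and the summit was base 127. Between fws, a subunit gene of the Golgi complex COG, and Lamtor3, a gene of lysosomal TOR control, TATCGATA began at base 189 and the summit was base 109. In neither did the element lie under the summit.

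The members were made up of 648 different gene pairs, of which 584 had 1 peak, 63 had 2 and 1 had 3. They touched 1338 genes, 9.58% of the 13968 protein-coding genes, while a peak of any class was near a start of 20.8% of them. Starts faced away from each other without overlap at 689 members, and at 24 members the transcripts overlapped at their 5′ ends by 11 to 268 bp. A pair of genes was involved at 680 members, 3 genes at 29 and at least 4 genes at 4.

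Divergent promoter peaks were stronger than single-gene promoter peaks at the median. The signal value is the number the authors' peak caller gave each peak, on a scale that is not stated, and it is comparable within a list only. In the optimal set the median signal was 170 at divergent peaks (quartiles 119 and 272, range 80.1 to 2063) and 137 at single-gene peaks (quartiles 102 and 225.1), a ratio of 1.24. The median of the whole set was also 137, and 452 members (63.4%, 95% Wilson interval 59.8 to 66.8%) stood above it, against 49.6% of single-gene peaks (47.3 to 51.8%) and 47.6% of peaks away from promoters. The distance between the classes was smaller at the top of the distribution. A signal of 500 or more was reached by 62 members (8.70%) and by 142 single-gene peaks (7.33%), where 6.10% of the whole set reached it, so that divergent peaks made up 15.3% of these strong peaks. The strongest single-gene peak had 2881, above the 2063 of the strongest member.

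Each replicate gave the same order. Where a summit had a match within 100 bp in both replicate lists, the medians in replicate 1 were 91.3 at divergent and 74.0 at single-gene peaks, a ratio of 1.23. In replicate 2 they were 87.4 and 68.7, a ratio of 1.27. The optimal set was drawn from reads of both replicates, so the strongest 6635 peaks of each replicate's own list were also classed by the same rule. Replicate 1 then held 765 divergent peaks with a ratio of medians of 1.17, and replicate 2 held 745 with 1.25. Of the 648 gene pairs, 603 were also found in the list of replicate 1 and 589 in that of replicate 2. Peaks are not replicates of a condition and none of these differences carries a test; intervals of shares cover counting error only.

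**Figure D1:**
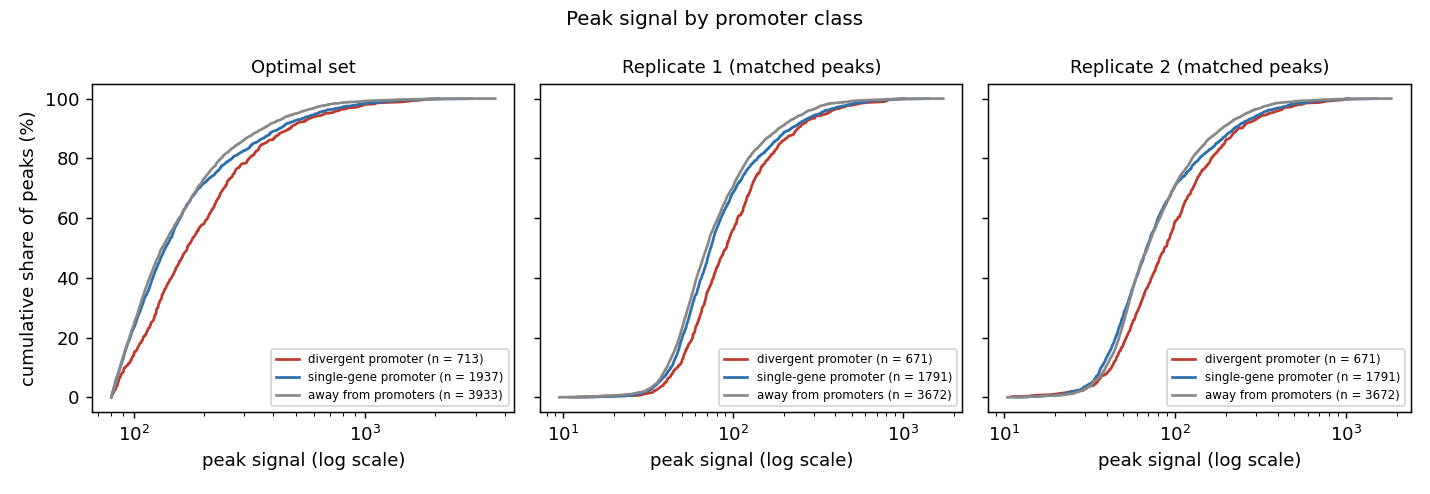
Cumulative share of peaks (%) against peak signal (log scale) for divergent promoter peaks, single-gene promoter peaks and peaks away from promoters, in the optimal set and, for peaks matched in both replicates, in each replicate's list. The curve of divergent peaks lies to the right of the others through the middle of the range in all 3 panels (medians 170 against 137 in the optimal set), and the curves meet at the top.

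Summits of members also lay closer to a start, which the rule on both starts favours. The median distance to the nearest start was 76 bp at members (quartiles 38 and 114) and 134 bp at single-gene peaks (55 and 245). Within equal distance the divergent peaks still had the higher median. At summits over 50 and up to 100 bp from the nearest start the median was 175 over 227 members and 126 over 339 single-gene peaks. At over 100 and up to 200 bp it was 190 over 213 members and 149 over 485 single-gene peaks. For all summits within 100 bp of a start the ratio of medians was 1.32. The ratio was 1.41 with starts counted within 250 bp, 1.14 within 1000 bp, and 1.05 among peaks at or above the median signal of the set.

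The replicates were close to each other at divergent promoters. A match was found for 692 members in replicate 1, for 689 in replicate 2, for 671 (94.1%, 95% Wilson interval 92.1 to 95.6%) in both and in neither for 3, beside 93.2% of the whole set matched in both. The log2 ratio of replicate 2 over replicate 1 had a median of -0.03 and an SD of 0.46 across members, against -0.07 and 0.54 across single-gene peaks. A difference above 2-fold was seen at 28 of the 671 members (4.17%), where 5.82% of all matched peaks differed as much. Across the matched members, log2 signals of the replicates gave Pearson's r of 0.895 and Spearman's rho of 0.871, and across single-gene peaks these were 0.858 and 0.770. These are descriptions across peaks of the same libraries, all kept by the irreproducible discovery rate step, and the SD was 0.34 at members at or above the set's median signal.

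The 3 members with the lowest and the 3 with the highest ratio between the replicates had signals of 84.1 to 163 in the optimal set. The largest excess of replicate 1 was at CG32590 and Flo2, a flotillin gene, with a signal of 84.6 in the optimal set, 90.4 in replicate 1 and 20.6 in replicate 2. CG10584 and Polr3E, a subunit gene of RNA polymerase III, followed with 43.6 and 11.3, and CG7182 and GAPcenA with 54.4 and 14.3. CG32590 and Flo2 had another member of 172, with 91.6 in replicate 2 and no match within 100 bp in replicate 1. The strongest member of CG10584 and Polr3E had 177, with 96.8 and 84.1 in the replicates. These ratios thus describe single summits and not whole promoters. The largest excess of replicate 2 was at CG10904 and CG3065, with 16.3 in replicate 1 and 54.8 in replicate 2. At Kap-alpha3, an importin gene, and Son the values were 39.1 and 125, and at lolal, a BTB protein gene, and CG10914 they were 26.6 and 63.8. The 3 with the lowest ratios and 2 of the 3 with the highest were below the set's median of 137, and Kap-alpha3 and Son were above it. A large difference was also found at a stronger member, Dad1 and CG13384, picked after its values were seen, with 276 in the optimal set, 163 in replicate 1 and 47.6 in replicate 2.

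**Figure D2:**
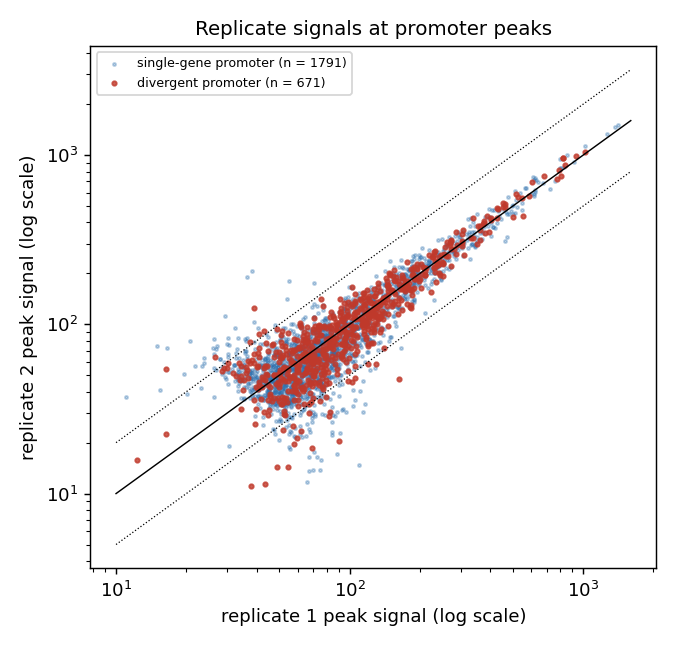
Peak signal in replicate 2 against replicate 1 (both log scale) for divergent and single-gene promoter peaks matched in both lists, one point per peak; the solid line marks equal signals and the dotted lines a 2-fold difference. The points narrow toward the line at high signal, and 28 of 671 divergent peaks lie outside the dotted lines.

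The 20 strongest members are given with both genes of each pair. At Chro, a chromodomain protein gene, and Ssl1, a subunit gene of the transcription factor TFIIH, the signal was 2063 in the optimal set, 1018 in replicate 1 and 1050 in replicate 2. At Tcs5 and CHMP2B it was 1911, with 930 and 986 in the replicates. At mRpS23, a mitochondrial ribosomal protein gene, and CenG1A, which encodes a GTPase-activating protein for Arf, it was 1785, with 817 and 968. Ranks in the replicates' own lists were 8 and 11 for Chro and Ssl1, 13 and 15 for Tcs5 and CHMP2B, and 22 and 16 for mRpS23 and CenG1A, so these peaks were near the top of both libraries. Next were Pdrg1 and Pal1 (1765), Pex11ab, a peroxisome gene, and CG8320 (1701), Fbw5, an F-box gene, and CG9147 (1579), CG11309 and CG7632 (1556), CG8372 and CG8360 (1486), CG3437 and CG3552 (1430), and Art3 and mRpS10 (1296). Spacing between the starts of these 10 strongest ran from 33 bp at Pex11ab and CG8320 to 492 bp at mRpS23 and CenG1A.

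The next 10 members ran from 1142 to 940. They were Stt3A, a catalytic subunit gene of oligosaccharyltransferase, with bves (1142), CG7601 with CIA30, which acts in the assembly of respiratory complex I (1104), and mRpL23, another mitochondrial ribosomal protein gene, with CG9004 (1103). CG5757 with CG5098 (1084), imd, the adaptor gene of the antibacterial Imd pathway, with Dp1 (993), and CG1275 with Elp5, an Elongator subunit gene (987), came after them. The last were Mkk4, a kinase gene of stress signalling, with SLIRP2 (976), CG4741 with Adck1 (965), Atat with Shc (947) and CG5611 with Mtl, a gene of a Rac-like GTPase (940). Of these 20 members, replicate 1 gave between 454 and 1018 and replicate 2 between 431 and 1050. CG4741 and Adck1 were the only pair of the 20 whose starts overlapped, by 141 bp.

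The members with the farther start nearest to 500 bp were Nepl19 and Nepl20, neprilysin-like peptidase genes, at 485 bp (signal 322), CG12929 and RpL31 at 491 bp (226), and Cht2 and CG8001 at 491 bp (122.8). Just outside were Ptp61F and CG9166 at 501 bp (85.9), beta4GalNAcTB and Cpsf100 at 503 bp (87.9), and PolD1 and Hip14 at 505 bp (86.8). Signals of the former were thus above those of the latter in these 6 peaks.

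Spacing between opposite starts had a median of 281 bp over the 689 head-to-head members (quartiles 200 and 369 bp, range 2 to 849 bp). The median signal was 262 over the 27 members with spacing up to 50 bp, with quartiles of 148 and 628 and medians of 128 and 132 in replicates 1 and 2. It was 173, 176 and 144 in the next 3 bins of 50 bp, up to 200 bp, then 191 up to 250 bp, 179 up to 300 bp, 169 up to 400 bp, 150.1 up to 500 bp and 143 up to 700 bp. Signal thus did not fall steadily with spacing: the bin up to 200 bp (27 members) was below both of its neighbours, and from 250 bp on each bin was below the one before. Among members above the upper quartile of signal the shortest spacings were 2 bp at dpa, a gene of the MCM replication helicase, and didum, a myosin V gene (410; 195 and 212 in the replicates), 8 bp at SerRS, a tRNA synthetase gene, and CG17260 (590; 272 and 309), and 27 bp at CG8892 and CG34126 (740; 395 and 351). The longest were 670 bp at Nepl19 and Nepl20 (322; 183 and 130), 642 bp at yin, a peptide transporter gene, and CG2930 (478; 251 and 231), and 621 bp at Acbp1, an acyl-CoA binding protein gene, and Piezo, which encodes a mechanically gated channel (505; 233 and 270).

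Summits were found between the opposite starts at 560 members (78.5%, 95% Wilson interval 75.4 to 81.4%). Inside, the median signal was 175, and outside, at the other 153 members, 157. Among the 20 strongest the summit lay outside at Chro and Ssl1, Pex11ab and CG8320, Fbw5 and CG9147, CG11309 and CG7632, and CG8372 and CG8360. It also did so at mRpL23 and CG9004, CG1275 and Elp5, and CG4741 and Adck1. At the rest of the 20 it lay between the starts. The share inside grew with spacing: it was 18.5% at spacings up to 50 bp, 51.4% over 50 and up to 100 bp, 70.4% over 150 and up to 200 bp, 86.5% over 200 and up to 250 bp, and 94.6% over 400 and up to 500 bp. As spacing grows, the rule allows less room outside the starts and more room between them. A rise of this share is therefore partly built in, and its size beyond that was not tested. Above 500 bp every member's summit is between the starts by the rule, since a summit outside would be over 500 bp from the farther start. Over the head-to-head members the median distance from summit to midpoint was 65 bp. Relative to its nearest start a summit lay upstream at 79.2% of members (76.1 to 82.1%) and at 72.0% of single-gene peaks (69.9 to 73.9%). The band from the start to 150 bp upstream held 70.4% of the members and 35.0% of the single-gene peaks, and single-gene summits were spread more widely. The rule favours both differences. A summit between head-to-head starts is upstream of both genes, while a single-gene summit may lie anywhere within 500 bp of a start. The size of the differences beyond this was not tested.

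**Figure D3:**
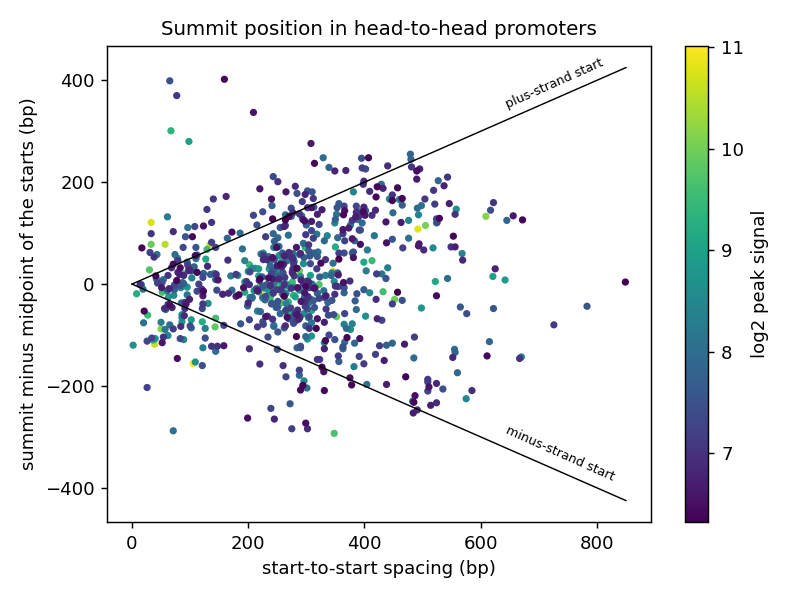
Distance of the summit from the midpoint of the opposite starts (bp, positive toward the plus-strand gene) against start-to-start spacing (bp) for the 689 head-to-head members, coloured by log2 peak signal; the lines mark the start sites. Most points with spacing above 200 bp lie between the lines and many near 0, while at spacings up to 50 bp most lie outside them.

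All annotated head-to-head pairs were then counted, whether bound or not. Neighbouring starts lay 1000 bp apart or less in 2667 pairs, and 686 of them (25.7%, 95% Wilson interval 24.1 to 27.4%) had a summit within 500 bp of both starts. The genes of these pairs had a summit within 500 bp of a start in 1621 of 5052 cases (32.1%, 30.8 to 33.4%), against 1291 of 8916 other genes (14.5%, 13.8 to 15.2%). A summit near both starts counts for both genes of a pair, so a head-to-head gene can be counted through a peak at its neighbour's start. The genes of a pair are therefore not independent, as the interval takes them to be. The part of this in the difference was not tested. Of 3536 genes that start within 1000 bp after the end of a gene on the same strand, and belong to no head-to-head pair, 15.6% were bound (14.5 to 16.9%). This last group was chosen after the data had been seen. In the strongest 6635 peaks of replicate 1 the shares for head-to-head and other genes were 34.6% and 14.98%, and in those of replicate 2 they were 33.8% and 14.0%.

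Occupied pairs were not spread evenly over the spacings. The share with a summit was 33.9% of 248 pairs over 50 and up to 100 bp apart and 29.3% of 208 pairs over 100 and up to 150 bp. It was 18.1% (12.8 to 25.1%) of 149 pairs over 150 and up to 200 bp apart. Above 200 bp it was higher again, with 38.8% (32.9 to 45.1%) of 242 pairs up to 250 bp, 41.0% of 300 pairs up to 300 bp and 39.0% of 400 pairs up to 400 bp, before it was 19.9% up to 500 bp. The dip at 150 to 200 bp and the plateau at 200 to 400 bp were also present in each replicate's own list, with 22.1% against 43.4, 43.3 and 40.5% in replicate 1 and 21.5% against 41.3, 40.7 and 39.8% in replicate 2. The stretch within 500 bp of both starts shrinks as spacing grows. With a fixed stretch of 150 bp to either side of the midpoint the shares were 26.0, 14.1, 35.1, 36.7, 33.3 and 13.1% from the bin up to 150 bp to the bin up to 500 bp, so that the bin over 150 and up to 200 bp was again below both of its neighbours, while the lowest of these 6 bins was now the one over 400 and up to 500 bp.

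**Figure D4:**
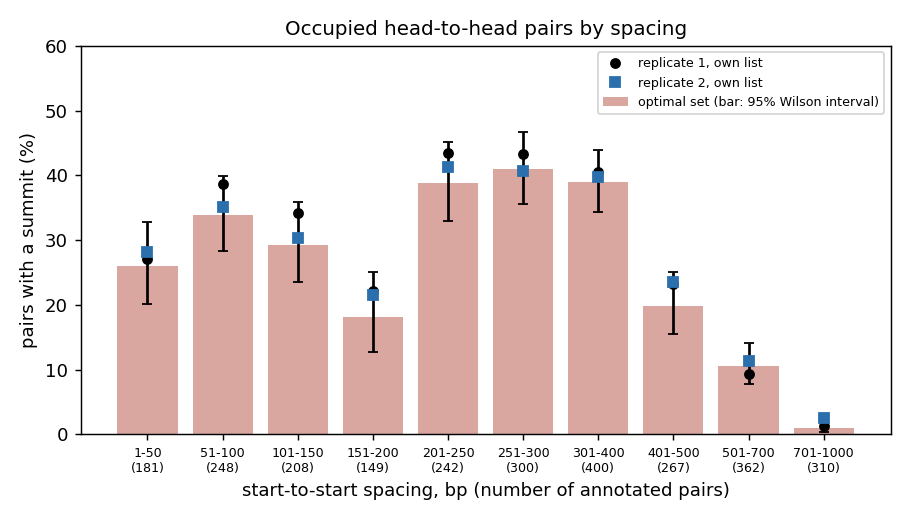
Share of annotated head-to-head pairs (%) with a summit within 500 bp of both starts, by start-to-start spacing (bp), in the optimal set (bars, with 95% Wilson intervals) and in the strongest 6635 peaks of each replicate's own list (points). The share is 18.1% at over 150 and up to 200 bp and between 38.8 and 41.0% in the 3 bins from there to 400 bp, and the replicates follow the bars.

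Genes at the members differed in length from those at single-gene peaks. The 1338 genes at divergent peaks had a median length of 2484 bp and a single annotated start in 61.9% of cases. The 1500 genes with a single-gene peak and no divergent one had 5836.5 bp and 42.6%, while all protein-coding genes had 2164.5 bp and 73.5%. The lists below were compared with all protein-coding genes, of which 9.58% were at a divergent peak and 10.7% at a single-gene peak only.

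Ribosomal proteins of the cytosol, which build the translating ribosome, were at divergent peaks in 30 of 86 cases (34.9%), and 32 more (37.2%) were at single-gene peaks. In the annotation 53 of the 86 (61.6%) stood in a head-to-head pair. Of these, 30 (56.6%) were at a divergent peak, against 26.2% of all head-to-head genes. The median signal of this list at divergent peaks was 257, where the median over all genes at divergent peaks was 180. The highest were RpL7, which shares its promoter with Ripalpha (827; 389 and 436 in the replicates), RpS27 with Nup37, a nuclear pore gene (777; 377 and 395), RpL34b with CG8132 (634; 284 and 351), and RpL32 with CG7943 (548; 280 and 279). Mitochondrial ribosomal protein genes differed from these in placement: 25 of 75 (33.3%) were at divergent peaks and 1 (1.33%) was at a single-gene peak alone. In the annotation 59 of these 75 genes (78.7%) stood in a head-to-head pair, and 25 of the 59 (42.4%) were at a divergent peak, against 26.2% of all head-to-head genes. After mRpS23, mRpS10 and mRpL23 the next was mRpL24 with betaggt-I (498; 271 and 221). Peroxisome biogenesis genes were at divergent peaks in 6 of 15 cases and at single-gene peaks alone in 0. Of the 12 in head-to-head pairs, 6 (50%) were at a divergent peak. The pair Pex16 and Pex14, both of this list, shared a peak of 177 (95.6 and 83.1 in the replicates), and after Pex11ab the highest was Pex10 with CG12099 (240).

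Genes of vesicle traffic were at divergent peaks in 26 of 103 cases (25.2%), led by CHMP2B, then Vps33B with the protease gene Fur1 (767; 337 and 425), alphaCOP, a coat protein gene, with CG13919 (582; 288 and 293), and AP-2alpha, an adaptor gene of endocytosis, with ebi (376). Of the vesicle genes in head-to-head pairs this was 40.6%, against 26.2% of all head-to-head genes. Mediator, the complex between activators and RNA polymerase II, had 7 of 29 genes there (24.1%), which was 33.3% of its 21 head-to-head genes, with MED30 and Rev1 (612; 303 and 310), MED27 and elm (471; 241 and 229), MED6 and Naa80 (254) and MED16 and CG11170 (229). Proteins of insulators and promoter architecture were at divergent peaks in 6 of 17 cases, with Chro, Cp190, an insulator cofactor gene, with CG4338 (502; 247 and 256), Dref with RpL13 (358; 155 and 210) and M1BP with CG8202 (175; 88.8 and 66.4). Of the 10 genes of this list in head-to-head pairs, 5 (50%) were at a divergent peak. The genes of both proteins that bind the elements named above, Dref and M1BP, were thus themselves at divergent peaks.

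In other lists of general cell function the share was closer to the 9.58% of all genes, and between 19.2% and 25% of their head-to-head genes were at divergent peaks. It was 17.1% for aminoacyl-tRNA synthetases (6 of 35, led by SerRS with 590 and GluProRS with 269), 16.4% for general transcription factors and RNA polymerase (10 of 61, led by Ssl1 and then Polr2H with 318), 15.2% for DNA replication (5 of 33, led by dup with 290), 12.6% for the respiratory chain (11 of 87, led by ND-ASHI with 561), 11.4% for initiation factors (5 of 44, led by eIF3h with 459) and 10.4% for the proteasome (5 of 48, led by Rpn5 with 402). Splicing and nuclear pore genes stood in head-to-head pairs in 28 of 34 and 21 of 26 cases, yet had only 2 members each at divergent peaks (SmD3 with 212 and snRNP-U1-C with 126; Nup37 and Nup98-96 with 255). That was 7.14 and 9.52% of their head-to-head genes, against 26.2% over all head-to-head genes. RPA1 and Mcm2, both replication genes, shared a divergent peak of 135 (81.0 and 52.0 in the replicates).

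Genes of the ecdysone cascade were more often at single-gene peaks, with 4 of 30 (13.3%) at divergent peaks and 13 (43.3%) at single-gene peaks alone. The former were Hr96, a nuclear receptor gene, with EMC6 (450; 229 and 214), usp, which encodes a subunit of the ecdysone receptor, with CG4313 (223; 106 and 118), tai, a coactivator gene of that receptor, with CG9586 (122; 61.7 and 64.7) and mld, a regulator gene of ecdysteroid synthesis, with CG13625 (98.4; 40.6 and 56.8). In the annotation 8 of the 30 ecdysone cascade genes stood in a head-to-head pair. Of these, 4 (50%) were at a divergent peak, against 26.2% of all head-to-head genes. Developmental transcription factors were head to head with a neighbour in 4 of 83 cases, at divergent peaks in 0 and at single-gene peaks in 17 (20.5%). Lists of genes used by few cell types held few head-to-head genes: 5 of 95 Cpr and Twdl cuticle protein genes, 26 of 179 chemoreceptor genes and 13 of 85 cytochrome P450 genes, against 36.2% of all protein-coding genes. Few could therefore be at a divergent peak. Of the head-to-head genes themselves, 0 of 5 cuticle, 2 of 26 chemoreceptor (7.69%) and 1 of 13 cytochrome P450 genes (7.69%) were at divergent peaks. Over all head-to-head genes this share was 26.2%. Cuticle proteins had 0 of 95 there, chemoreceptors 2 of 179 (Ir60e with CG13585, 154, and Gr63a with Lamtor4, 90.2) and cytochrome P450 genes 1 of 85 (Cyp9f2 with CG5167, 141). A gene at a divergent peak shares the peak with its neighbour, so these counts do not say which gene of a pair the peak belongs to.

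**Figure D5:**
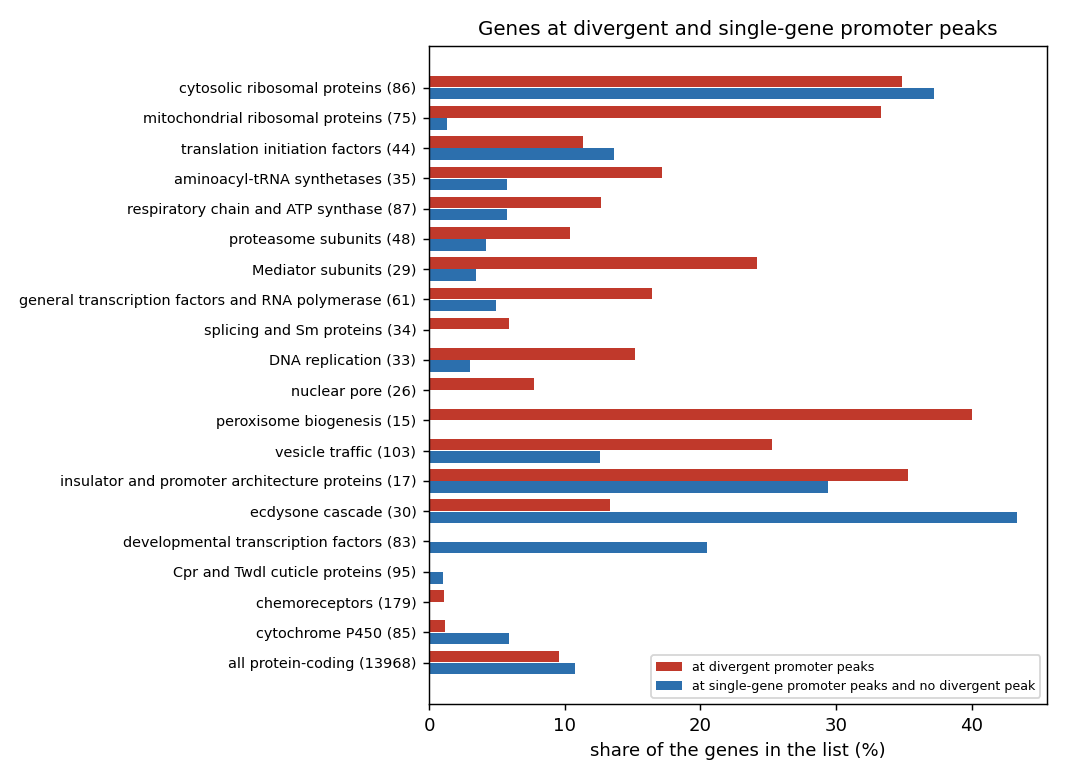
Share of the genes of each list (%) at divergent promoter peaks and at single-gene promoter peaks alone, with the number of genes in the list in parentheses and all protein-coding genes in the lowest row. Mitochondrial ribosomal protein and peroxisome genes have 33.3 and 40.0% at divergent peaks and at most 1.33% at single-gene peaks alone, and ecdysone cascade genes have 13.3 and 43.3%.

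Sequence around the summits also differed between the classes. The elements were searched on both strands within 150 bp of the summit, and a TATCGATA always holds a CGATA too, the sequence recognised by the boundary protein BEAF-32. TATCGATA was found at 107 of 713 members (95% Wilson interval 12.6 to 17.8%), at 5.63% of single-gene peaks and at 3.57% of the whole set. CGATA was found at 59.7% of members, 43.5% of single-gene peaks and 37.5% of the whole set. GGTCACAC was found at 9.26%, 4.28% and 2.70%. GAGAG, the sequence of GAGA factor, went the other way, with 23.3% of members (20.3 to 26.5%), 48.3% of single-gene peaks (46.1 to 50.5%) and 39.9% of the whole set. Within 50 bp to either side of the summit the GC content was 36.2% ± 9.91 (SD, n = 713 peaks) at members and 41.0% ± 10.5 (SD, n = 1937 peaks) at single-gene peaks, so the classes also differ in base composition, whose part in these shares was not tested. Members also have starts of at least 2 genes near the summit and lie nearer to a start, and the part of this was not tested. In this narrower window TATCGATA was found at 5.33% of members and 2.37% of single-gene peaks. Around the most upstream starts of all protein-coding genes it was found at 5.56%.

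Head-to-head promoters without a peak were searched as well. Windows of the same width centred midway between the starts held TATCGATA at 16.8% of the 686 occupied pairs (14.2 to 19.7%) and at 12.2% of the 1981 others (10.8 to 13.7%), GGTCACAC at 9.04% and 9.84%, and GAGAG at 22.4% and 21.7%. For these 3 elements the shares at occupied and other pairs were closer to each other than those at divergent and single-gene peaks. The gap between occupied and other pairs was wider for CANCNCTA, which was found at 29.3% (26.0 to 32.8%) against 15.3% (13.8 to 17.0%), for the E-box CAGCTG, at 26.7% (23.5 to 30.1%) against 17.1% (15.5 to 18.8%), and for CGATA, at 61.4% against 52.2%. Within 50 bp of the midpoint these gaps were small, with 7.43% against 6.26% for CANCNCTA, 6.85% against 6.71% for CAGCTG and 24.3% against 23.3% for CGATA. Occupied pairs also had other spacings than the rest, so that a window at the midpoint covers other parts of the promoter, and the part of spacing in these shares was not tested. Around the most upstream starts of all protein-coding genes, CANCNCTA was found at 14.9%, CAGCTG at 18.1%, CGATA at 47.7%, TATCGATA at 8.53%, GGTCACAC at 7.40% and GAGAG at 30.7%. Members with CAGCTG had a median signal of 202 against 164 without it, with 105 against 84.9 in replicate 1 and 100.7 against 83.0 in replicate 2. Members with CANCNCTA had 186 against 165, with 98.6 against 87.5 and 93.8 against 84.1 in the replicates. Other elements went the other way, with 163 against 179.9 for CGATA, 139.8 against 175 for GGTCACAC and 149 against 175 for TCAGTT, and for TATCGATA the medians were 174 with it and 169.8 without. The A-rich word AAACAAA, searched as a candidate core of Broad sites, was found at 30.3% of members and 28.5% of the whole set. Another such word, AAACTAA, was found at 13.9% and 10.4%. Within 50 bp of the summit the order was reversed, with 9.40% of members and 10.2% of the whole set for AAACAAA. For AAACTAA these shares were 3.93% and 4.34%. Within 150 bp of the midpoint, AAACTAA was found at 16.0% (13.5 to 19.0%) of occupied and 12.8% (11.4 to 14.3%) of other pairs. Within 50 bp of the midpoint it was found at 6.71% (5.06 to 8.83%) and 4.24% (3.44 to 5.22%). For AAACAAA the shares at pairs were 28.4% against 27.4% in the wider window and 8.89% against 8.58% in the narrower one. A match describes the letters and is not evidence of a bound site.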

How the data were processed

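Broad occupancy was measured in 2 replicates of 1 group. The authors deposited narrowPeak lists on dm6 with a signal value per peak: 30000 peaks per replicate and for the pooled replicates, made as input to the IDR (irreproducible discovery rate) step, and an optimal set of 6635. A control alignment served in peak calling, per the deposited README. The aligner, the caller with its settings and the signal's scale are not given here because the sources used do not state them. As the lists hold no reads, the depth is unknown and signals carry no interval. The dm3 lists were not used.

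Summits were compared with 19630 start sites of 13968 protein-coding genes (Ensembl release 115, dm6 coordinates). A promoter peak near several genes was divergent when both strands were present, and spacing runs from the nearest minus-strand start to the nearest plus-strand start. Replicate values are the strongest summit within 100 bp in that replicate's list. Sequences came from the RefSeq genome of the same assembly. Python 3.11.15, numpy 2.4.6, pandas 2.3.3 and scipy 1.17.1 were used, and the classification, matching and motif search were checked on simulated data with known answers. Wilson intervals (95%) cover counting error only. No test was made, because the series has 1 group and peaks of the same libraries are not replicates.

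The members and the 19 gene lists and 12 motifs were chosen with earlier results of these data known. Genes named are the 20 strongest members, the extremes of spacing and of the replicate ratio, the members next to the 500 bp limit, and up to 4 strongest members per list. Of 9 intervals read, 5 are printed. Intervals on arm 2R were left out. Passing over intervals with annotated exons, and taking a further interval with TATCGATA (fws and Lamtor3), were choices added after the data were seen.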

Additional observations from a re-analysis of the deposited data

How the results depend on the processing

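No paired analysis was possible because the series holds 1 group. Of 78 recomputed values for 12 results, 39 moved beyond a limit set for each kind of result. For shares the limit was the counting interval, and for the ratio of medians and the spacing it was the SD between replicates. The number of peaks had a wider, fixed fold limit, so 992 divergent peaks with starts within 1000 bp did not count as moved. The median log2 ratio was judged against its SD across members, and that SD against its own interval. The ratio of median signals stayed above 1 under all 10 of its alternatives. With starts within 250 bp there were 447 divergent peaks, with a ratio of 1.41, a median spacing of 232 bp, 69.1% above the set's median and TATCGATA at 18.1%; head-to-head pairs were occupied in 17.8%, their genes in 27.5% and other genes in 11.9%. With 1000 bp the ratio was 1.14, the spacing 313 bp, 59.5% stood above the median and 71.6% of summits lay between the starts, and the occupied shares were 33.3, 36.7 and 17.3%. Among peaks at or above the median signal, 452 were divergent, with a ratio of 1.05, a spacing of 269.5 bp, 56.6% above the median of those peaks, 96.7% matched in both replicates, an SD of the log2 ratio of 0.34 and occupied shares of 17.4, 21.0 and 7.74%; the cut itself narrows the range of signals. With the most upstream start of each gene the spacing was 262.5 bp and 70.3% of summits lay between the starts. With summits within 100 bp of a start the ratio was 1.32. Matching within 50 bp gave 77.4% in both replicates and an SD of 0.41, and within 200 bp 98.0%. With pairs up to 500 bp apart the occupied shares were 32.3, 35.1 and 15.5%. TATCGATA within 50 bp was found at 5.33%. Where another cause is not named by the setting, the cause was not tested. Leaving out a replicate gave 745 to 765 divergent peaks, ratios of 1.17 to 1.25, 60.7 to 62.3% above the median, spacings of 271 to 277 bp, 76.7 to 78.5% between the starts, TATCGATA at 14.5 to 15.7%, and occupied shares of 27.2 to 28.0% for pairs, 33.8 to 34.6% for their genes and 14.0 to 14.98% for other genes. Without read counts, no limit from depth could be given.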

Other observations

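The strongest promoter peak of the set, with a signal of 2881 (1412 and 1513 in the replicates), lies between head-to-head genes and is not among the divergent peaks. Its summit was 28 bp from a start of Ugalt, a UDP-galactose transporter gene, and 691 bp from the start of eIF2Bbeta, a translation factor gene. It was picked after its value was seen.

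At 4 members at least 4 genes had a start near the summit. At mod(mdg4), a locus known for trans-splicing, 10 genes named pre-mod(mdg4) on both strands lay near a summit with a signal of 588 (272 and 316 in the replicates). The others were PIG-M and NC2alpha (477), CG31650 and CG33995 (164), and COX6B and CG33932 (142). The pair with 3 peaks was Elp6, an Elongator gene, and Dic1, a mitochondrial carrier gene, with 606, 191 and 128. The 24 members with overlapping starts had a median signal of 125, against 172 at the 689 head-to-head members.

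Divergent peaks made up 20.1% of the promoter peaks on X (90 peaks) and 24.8 to 29.9% on the arms of chromosomes 2 and 3. Per Mb the density was 3.82 on X and 5.34 to 6.27 on those arms.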
